A study of Mus musculus with 1483 samples.

Results

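Excitatory neurons without Rorb or Fezf2 were the 119 of 1483 sorted cells of mouse visual cortex that carried Slc17a7 at 10 counts per 1000000 reads (CPM) or more, Gad1 and Gad2 below 10 CPM, and Rorb and Fezf2 both below 50 CPM. They are called the members below. Slc17a7 encodes the vesicular glutamate transporter VGLUT1 and marks cortical excitatory neurons, while Gad1 and Gad2 encode the enzymes that make GABA. They made up 42.8% of the glutamatergic cells, which are the cells that met the conditions on Slc17a7, Gad1 and Gad2. The other glutamatergic cells had at least 50 CPM of Rorb alone (65 Rorb cells), of Fezf2 alone (56 Fezf2 cells) or of both (38 cells). The members were thus selected on measured values of 5 genes, and none of these 5 genes was tested.

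All cells came from C57Bl/6J mice that carried an adeno-associated virus (AAV) in which an enhancer drove the yellow fluorescent protein SYFP2. Fluorescent cells of the tissue labelled VISp, a name for primary visual cortex, were sorted into single tubes, and their polyadenylated RNA was read with the SMARTerv4 chemistry. The enhancers that gave members were eHGT_078h (71 members from 3 mice), eHGT_058h (29 from 3 mice), eHGT_023h (16 from 3 mice), and eHGT_017h, eHGT_019h and eHGT_082h with 1 member each. The mice of eHGT_064h, eHGT_079h, eHGT_128h, eHGT_140h and hDLXI56i gave no member. A sort of this kind holds the cells in which the virus and its enhancer were active, so shares of cells below are shares of a fluorescent sort and not of the tissue. The mouse was the replicate, and the age of the mice is not given in the sources used here.

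Excitatory neurons of the neocortex differ by layer and by the target of their axon. Intratelencephalic (IT) neurons project within the cerebral hemispheres and lie in layers 2/3 (L2/3), 4, 5 and 6, whereas extratelencephalic (ET) neurons of layer 5 and corticothalamic (CT) neurons of layer 6 send axons below the cortex. Rorb is a nuclear receptor of IT neurons of layers 4 and 5, and Fezf2 is a zinc finger factor that specifies subcortical projection neurons. Cells with neither gene are therefore expected mainly among IT neurons of the upper layers and of layer 6.

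The selection left a clear gap in Rorb. Among the cells that met the other conditions, the highest level inside the threshold was 48.7 CPM and the lowest outside was 110 CPM. For Fezf2 the highest level inside was 42.5 CPM and the lowest outside 84.6 CPM. Rorb was at 0 in 93 members and Fezf2 in 116, and 110 members had both below 10 CPM. Gad1 was at 0 in 117 members and Gad2 in 117. Slc17a7 had a median of 1363 CPM in members against 665 CPM in the other glutamatergic cells, and its lowest level in any member was 474 CPM.

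Members held 76020 to 907004 reads per cell (median 597753) and a median of 9969 detected genes, against 28853 to 850050 reads (median 582644) and 10362 genes in the other glutamatergic cells. In the median member 1 read was 1.67 CPM. Markers of other cell types were low in both: summed over 13 GABAergic genes without Lamp5, members of the 7 mice used below had 0 to 9.96 CPM per mouse (median 2.03) and other glutamatergic cells 0.153 to 15.4 CPM (median 1.84). Slc32a1, Dlx2, Dlx5, Dlx6os1, Lhx6, Vip and Sncg were at 0 in all cells of both. The sum over 7 astrocyte genes was 38.8 to 73.8 CPM in members and 37.9 to 124.2 CPM in the others, that over 6 oligodendrocyte genes 14.1 to 39.7 CPM in members and 7.95 to 33.1 CPM in the others, and that over 3 genes of oligodendrocyte precursors 0 to 3.99 CPM in members and 0 to 1.95 CPM in the others. Over 7 microglial genes the sums reached 1.37 CPM in members and 4.29 CPM in the others, and over 7 endothelial and mural genes 5.05 CPM in members and 6.00 CPM in the others.

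Mice of eHGT_078h gave the largest share of members among all sorted cells. Of their sorted cells, 20 of 48 (41.7%), 27 of 46 (58.7%) and 24 of 46 (52.2%) were members. Mice of eHGT_058h gave 10 of 39 (25.6%), 8 of 35 (22.9%) and 11 of 46 (23.9%), and mice of eHGT_023h gave 12 of 47 (25.5%), 3 of 48 (6.25%) and 1 of 43 (2.33%). The eHGT_023h mice thus spread over a range that overlaps eHGT_058h through 1 mouse, MouseID-497548. As a share of glutamatergic cells, members were 48%, 50% and 12.5% in the eHGT_023h mice, of 25, 6 and 8 such cells. In the eHGT_078h mice they were 41.7%, 61.4% and 54.5%, of 48, 44 and 44 such cells, so these ranges overlapped. Outside eHGT_078h, eHGT_058h and eHGT_023h no mouse gave more than 3 glutamatergic cells.

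The share was 50.9% ± 8.59 (SD, n = 3 mice) for eHGT_078h against a mean of 3.83% in the 30 other mice, a difference of 47.01 percentage points (2-sided exact permutation test over 5456 assignments, p = 0.000367, adjusted over 11 enhancers 0.00403). For eHGT_058h it was 24.1% ± 1.41 against 6.50% in the 30 other mice (exact permutation test, adjusted p = 0.649), and for eHGT_023h 11.4% ± 12.4 against 7.78% (exact permutation test, adjusted p = 0.788). The means of other mice hold the eHGT_078h mice in both of these tests. The unadjusted p for eHGT_078h is the smallest that 3 against 30 mice can give. Of those 30 mice, the ones outside eHGT_058h and eHGT_023h gave at most 3 glutamatergic cells each. Members are glutamatergic by selection, so the eHGT_078h test does not separate the share of members from the share of glutamatergic cells. With only the mice whose cell names bear the prefix letter G, the eHGT_078h difference was 47.6 points with an adjusted exact p of 0.0725.

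Mice of eHGT_078h held more members than mice of eHGT_058h in each of 3 against 3 mice, both as a share of all cells (50.9% ± 8.59 against 24.1% ± 1.41) and as a share of glutamatergic cells (52.5% ± 10 against 31.9% ± 5.76). The exact permutation p was 0.1 for both, which is the smallest that 3 against 3 mice can give. The other glutamatergic cells of eHGT_078h mice were mostly Fezf2 cells (19, 16 and 11 cells in the 3 mice), and those of eHGT_058h mice were Rorb cells (8, 17 and 15) and cells with both genes (8, 4 and 11), with no cell of Fezf2 alone in any eHGT_058h mouse.

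**Figure D1:**
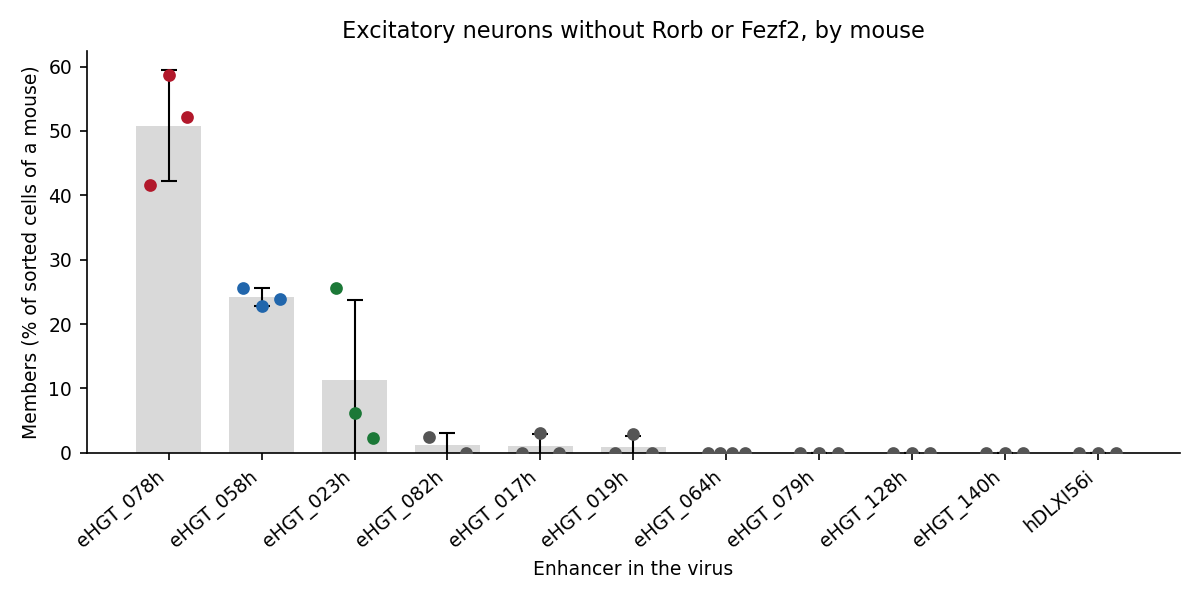
Share of sorted cells that were excitatory neurons without Rorb or Fezf2, in percent (vertical axis), for each of 11 enhancers (horizontal axis). Each point is a mouse, bars are means and error bars SD; the 3 eHGT_078h mice sit between 41.7% and 58.7%, above every mouse of the other enhancers.

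The layer markers split the members. Cux2, a homeobox factor of upper-layer neurons, reached 10 CPM in 43 of 119 members (36.1%), and Otof, which encodes otoferlin and marks a part of L2/3 neurons, in 23 (19.3%). Met, which encodes the hepatocyte growth factor receptor, reached it in 71 (59.7%) and Slc26a4, which encodes the anion exchanger pendrin, in 74 (62.2%). Either of Cux2 and Otof was found in 49 members and either of Met and Slc26a4 in 84, while 18 members had a gene of each pair and 4 had neither pair. These 18 members had a median of 568188 reads and 9949 genes, against 600412 reads and 9969 genes in the rest.

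Besides Cux2, the markers named for this group were Fst, which encodes the activin antagonist follistatin, in 84 members (70.6%), Tnnc1, a troponin C gene, in 73 (61.3%), Rmst, a long noncoding RNA, in 62 (52.1%), and Tnfaip6, which encodes a hyaluronan-binding protein, in 58 (48.7%). No level of these markers was a condition in the selection of the cells. Osr1, a zinc finger factor found in some layer 6 IT neurons, reached 10 CPM in 22 members (18.5%), and Foxp2, a forkhead factor typical of layer 6 CT neurons, in 16 (13.4%). Only 3 members had none of the 8 layer markers Cux2, Otof, Fst, Tnnc1, Met, Slc26a4, Osr1 and Foxp2. In the other glutamatergic cells Met reached 10 CPM in 1 cell (0.629%), Osr1 in 0 cells, Otof in 2, Rmst in 6, Fst in 11, Tnfaip6 in 20, Foxp2 in 34, Slc26a4 in 43, Tnnc1 in 45 and Cux2 in 66. These counts were known when this group was chosen for description and are given without a test.

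The levels of these markers by mouse are given next, also as a description. In the 7 mice with at least 5 members and 5 other glutamatergic cells, the mean of Fst was up to 214.9 CPM in members (median 179.2) and 0 to 11.5 CPM in the others (median 0.875). Met had 14.2 to 90.1 CPM in members (median 48.5) and 0 to 6.02 CPM in the others, and Rmst 13.1 to 87.2 CPM in members (median 46.4) against a median of 0.868 CPM in the others. For these 3 genes no mouse overlapped between members and others. Tnfaip6 ranged more widely, with 61.9 to 1095 CPM in members (median 153.2) against 0 to 60.3 CPM in the others, and its highest level was in eHGT_058h MouseID-458159.

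Tnnc1 had 43.2 to 232.8 CPM in members (median 135.1) and 2.70 to 67.4 CPM in the others, and Slc26a4 had 22.6 to 119.6 CPM in members (median 76.2) and 0.694 to 30.3 CPM in the others. Both overlapped between the sides over all mice. Cux2 had 2.13 to 31.6 CPM in members (median 8.86) and 3.07 to 57.4 CPM in the others (median 20.7), and Foxp2 0.293 to 10.05 CPM in members (median 3.28) and 3.82 to 56.8 CPM in the others (median 8.51), so these 2 were not higher in members. Otof had 0 to 18.1 CPM in members (median 5.43) and at most 1.51 CPM in the others. Osr1 had 0 to 10.7 CPM in members (median 4.88) and was at or below 0.0837 CPM in the others.

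Clustering of the members alone gave 2 subgroups of 42 and 77 cells, which are described without a test because they were drawn from the same gene levels. Apart from 3 cells described below, the subgroup of 42 cells was L2/3 IT-like. Over all 42 cells, 7 of the 10 genes of the L2/3 IT list reached 10 CPM in at least 50% of its cells. Cux2 did so in 38 of 42 cells (mean 42.8 CPM), Lamp5 in 42 (mean 1822 CPM), Calb1, which encodes the calcium buffer calbindin, in 41 (mean 1293 CPM), and Otof in 20 (mean 27.7 CPM). Its leading genes also held Slc17a6, the gene of the second vesicular glutamate transporter VGLUT2, with a mean of 121.7 CPM in the 42 cells and 0.649 CPM in the 77.

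The subgroup of 77 cells matched no layer list. Slc26a4 reached 10 CPM in 71 of these cells, Fst in 64, Met in 63, Tnnc1 in 62 and Rmst in 61, whereas Cux2 did in 5 and Otof in 3. Of 8 genes of the layer 6 IT list, Fst alone reached 10 CPM in at least 50% of the cells, with Col18a1 in 38 cells, Osr1 in 21 and Penk in 21. In the subgroup of 42, Fst reached it in 20 cells, Col18a1 in 1, Osr1 in 1 and Penk in 21. Penk alone of that list passed the 50% mark there. Of the 10 genes of the L2/3 IT list Cux1 and Calb1 passed the 50% mark in the 77 cells, Calb1 in 67 of them. Of the L4 and L5 IT list Deptor alone passed that mark, of the L5 ET list Bcl6 and Parm1, of the L6b list Cplx3, and of the lists of near-projecting L5 neurons (L5 NP) and L6 CT neurons no gene. Its leading genes were Sema3e, a secreted semaphorin of axon guidance (mean 220 CPM in the 77 cells, 0.252 CPM in the 42), Cd24a, Slc5a5, Pcp4, Plcxd3, Lmo3, Rmst, Kcnab1, Tmem91 and Slc26a4. These 77 cells fit neither L2/3, L5 ET nor L6 CT by their lists. The L6 IT list was mixed. Among members Col18a1 and Osr1 were found almost only in the 77 cells, but Fst alone of that list passed the 50% mark. The 77 cells were given no layer name. Of the subgroup of 42, 39 cells stayed together in a finer clustering, and 8 of 10 L2/3 IT list genes passed the same mark there. The other 3 cells of that subgroup fell into a group of 4 cells with Car3, a carbonic anhydrase gene of the L6 IT list, and were left without a layer name.

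**Figure D2:**
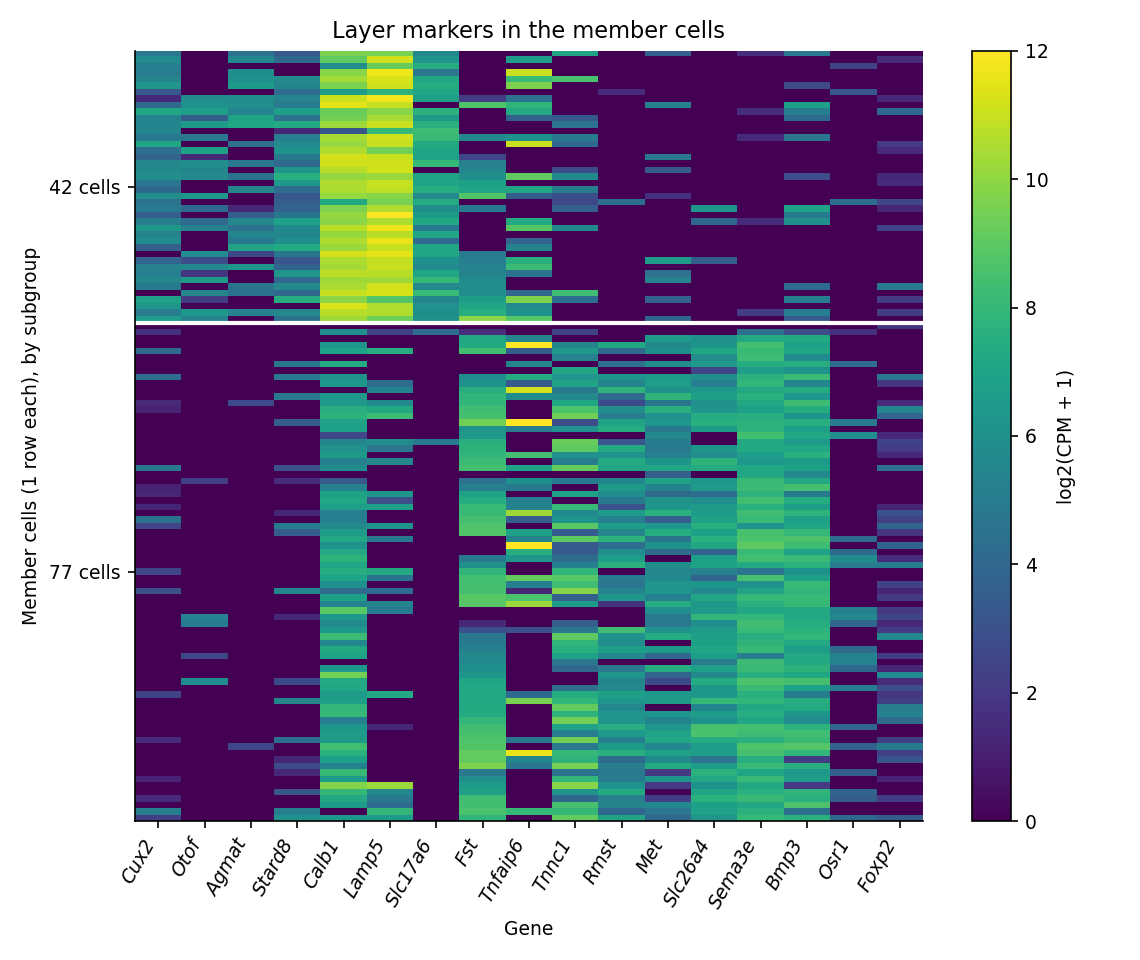
Levels of 17 marker genes (horizontal axis) in the 119 member cells (1 row each), as log2(CPM + 1) by colour, with the subgroup of 42 cells above the white line and that of 77 below it. Cux2, Agmat, Calb1, Lamp5 and Slc17a6 were higher on average in the upper block, and Rmst, Met, Slc26a4, Sema3e and Bmp3 in the lower one. Calb1 reached 10 CPM in 41 upper and 67 lower cells, and Agmat in 24 upper cells.

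The 2 subgroups did not come equally from the mice. In the eHGT_078h mice 9 of 20, 2 of 27 and 17 of 24 members were in the subgroup of 42. In the eHGT_058h mice 0 of 10, 1 of 8 and 1 of 11 members were, and in the eHGT_023h mouse with 12 members 8 were. The L2/3 IT-like group of 39 held 9, 1 and 17 members of the eHGT_078h mice, and 0, 1 and 1 of the eHGT_058h mice. It held 6 members of that eHGT_023h mouse. The eHGT_078h mice thus ranged widely among themselves, and eHGT_078h MouseID-454782 lay among the eHGT_058h mice.

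The finer clustering of all 119 members gave groups of 39, 22, 20, 19, 15 and 4 cells. The groups of 22, 20, 19 and 15 lay wholly in the subgroup of 77, and the group of 39 wholly in that of 42. Of the L6 IT list, Fst and Osr1 reached 10 CPM in at least 50% of the group of 22. Fst and Col18a1 did so in the groups of 20 and 15, and Fst alone in the group of 19. Of the L2/3 IT list 3 genes did so in the group of 22, 4 in those of 20 and 19, and 2 in that of 15. The group of 22 had Osr1 in 13 cells and Rprm among the list genes found in at least 50% of its cells, and 14 of its cells came from eHGT_078h MouseID-454782. Cux2 reached 10 CPM in 0 of these 22 cells and Rmst in 14. In the group of 19, Rmst and Slc26a4 were found in all 19 cells and Tnfaip6 in 16, while Tnfaip6 was found in 2 of the 22. The group of 4, with 3 cells of the subgroup of 42 and 1 cell of that of 77, had Car3 in 4 of 4 cells (mean 42.5 CPM) and Penk in 4, with Cux2 in 2 and Fst, Met and Slc26a4 in 0. Of these 4 cells 3 came from eHGT_023h MouseID-497548.

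Members were next set against the other glutamatergic cells of the same mice, in the 7 mice with at least 5 cells of each kind (3 of eHGT_078h, 3 of eHGT_058h and 1 of eHGT_023h). Levels are means of CPM over the cells of a mouse, differences are on the log2(CPM + 1) scale with the standard error (SE), and the test was limma with the mouse as a block and Benjamini-Hochberg adjustment over all genes. Calls needed an adjusted p below 0.05 together with a log2 difference of 1 or more in either direction. Such differences understate the change of genes at low levels. Because the cells were separated by Rorb and Fezf2, genes that accompany these genes in single cells differ through the choice itself. The 7 mice also have different mixtures of Rorb and Fezf2 cells on the other side. Of 17951 genes tested, 525 were higher in members (2.92%) and 912 lower (5.08%), and the median difference over all tested genes was -0.06. With a pseudocount of 10 CPM 575 genes were called, and with only the mice whose cell names bear the letter J 846. With the letter G alone 2.68% of the tested genes were called.

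Bmp3 and Rspo2, genes of secreted factors, were among the largest rises. Bmp3, which encodes a bone morphogenetic protein (chr5:98854415-98884053, RefSeq on GRCm38.p6), had 44.8 to 170.9 CPM in members of the 7 mice (median 125.5) against 0 to 1.35 CPM in the others (median 0.139). The lowest mouse of the members lay far above the highest of the others, and the log2 difference was 6.27 ± 0.35 (SE, limma adjusted p = 3.96e-06). It averaged 166 CPM in the subgroup of 77 cells and 12.8 CPM in that of 42. Rspo2, an R-spondin that enhances Wnt signalling, had 20.8 to 86.2 CPM in members (median 45.1) against 0 to 2.67 CPM (median 0.518) in the others, a log2 difference of 4.52 ± 0.45 (limma adjusted p = 0.000132), and it too was mainly a gene of the 77 cells (70.9 against 4.99 CPM).

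Rasl10a and Gnb4 also rose, and both subgroups had cells with each gene. Rasl10a, a gene of a Ras-like small GTPase, had 102.1 to 182.8 CPM in members (median 134.1) against 0.103 to 18.9 CPM in the others (median 3.65), with a log2 difference of 4.93 ± 0.47 (limma adjusted p = 0.000106). It averaged 163 CPM in the 77 cells and 109.3 CPM in the 42, and reached 10 CPM in 69 of the 77 and 39 of the 42. Gnb4, which encodes a G protein beta subunit, had 24.6 to 402.9 CPM in members (median 89.9) against 1.35 to 4.87 CPM in the others (median 2.51), a log2 difference of 4.84 ± 0.32 (limma adjusted p = 1.03e-05), and the highest mouse was eHGT_023h MouseID-497548. Gnb4 reached 10 CPM in 72 of the 77 cells and in 17 of the 42. Its mean of 129.02 CPM in the 42 cells came largely from 3 cells of the group of 4, which averaged 1607.9 CPM, against 15.3 CPM in the other 39. In the 77 cells it averaged 121.7 CPM, with 90.55 to 118.65 CPM in the finer groups of 22, 20, 19 and 15 and 1477.4 CPM in the remaining cell. No mouse overlapped between members and others for either gene.

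Cdkn1c, which encodes the cyclin-dependent kinase inhibitor p57, had 12.6 to 57.8 CPM in members (median 37.5) and at most 0.901 CPM in the others, a log2 difference of 4.89 ± 0.31 (limma adjusted p = 7.63e-06). Cdh9, a classical cadherin, had 4.46 to 104.01 CPM in members and at most 2.94 CPM in the others, a log2 difference of 4.42 ± 0.58 (limma adjusted p = 0.00068). Serpina3n, a serine protease inhibitor gene, had 5.93 to 39.2 CPM in members and was listed at 0 in the others of all 7 mice (limma adjusted p = 3.59e-05). All 3 genes were higher in members in 7 of 7 mice.

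The largest falls were of genes nearly silent in members. Galntl6, a gene of the family that starts mucin-type glycosylation, had 0.854 to 3.78 CPM in members (median 2.16) against 132.3 to 751.2 CPM in the others (median 424), a log2 difference of -6.80 ± 0.38 (limma adjusted p = 3.96e-06). Crym, which encodes the thyroid hormone binding protein mu-crystallin (chr7:120186380-120201989, GRCm38.p6), had 0 to 2.17 CPM in members and 44.2 to 308.7 CPM in the others (median 136.5), a log2 difference of -6.46 ± 0.38 (limma adjusted p = 3.98e-06). Both genes fell in members of 7 of 7 mice without overlap. Ptprm, a receptor tyrosine phosphatase of cell adhesion, had at most 1.63 CPM in members and 8.12 to 150 CPM in the others (-5.25 ± 0.45, limma adjusted p = 6.29e-05).

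Grik1, which encodes a kainate receptor subunit, had 0 to 15.6 CPM in members (median 0.170) against 15.3 to 132.5 CPM in the others (median 99.3), a log2 difference of -5.20 ± 0.51 (limma adjusted p = 0.00012). The highest value in members was that of eHGT_058h MouseID-463481, and the 6 other mice had at most 0.579 CPM. Thsd7a, a thrombospondin type 1 domain gene, fell to at most 2.74 CPM in members, against 0.912 to 280 CPM in the others (-5.75 ± 0.77, limma adjusted p = 0.000911). In eHGT_078h MouseID-454782, whose other glutamatergic cells were nearly all Fezf2 cells, Thsd7a had 0.823 CPM in members and 0.912 CPM in the others. Hsd11b1, Whrn, Bglap3, Tox and Vwc2l completed the 10 largest falls with the same direction in all 7 mice, with log2 differences between -5.25 and -3.95.

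**Figure D3:**
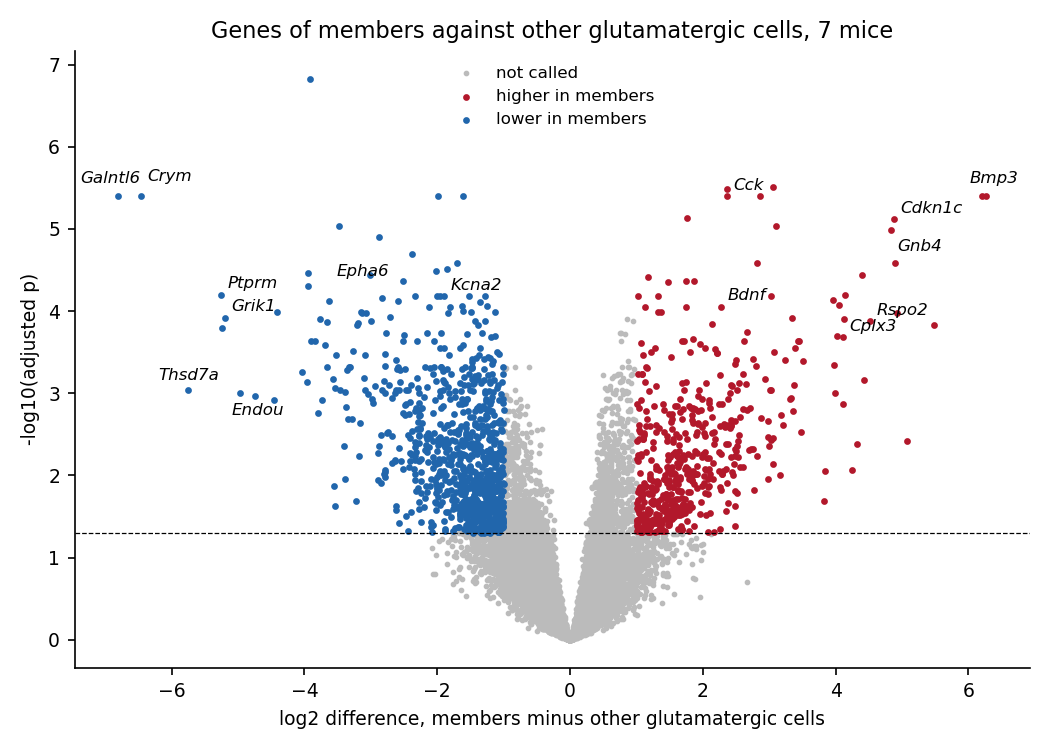
Log2 difference of members minus other glutamatergic cells (horizontal axis, log2(CPM + 1) scale) against -log10 of the limma adjusted p (vertical axis) for the genes tested in 7 mice, without the 5 genes of the selection, Xist and Tsix. Red points are the genes called higher in members and blue points those called lower; the dashed line marks an adjusted p of 0.05, and Bmp3 and Galntl6 lie at the outer ends.

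**Figure D4:**
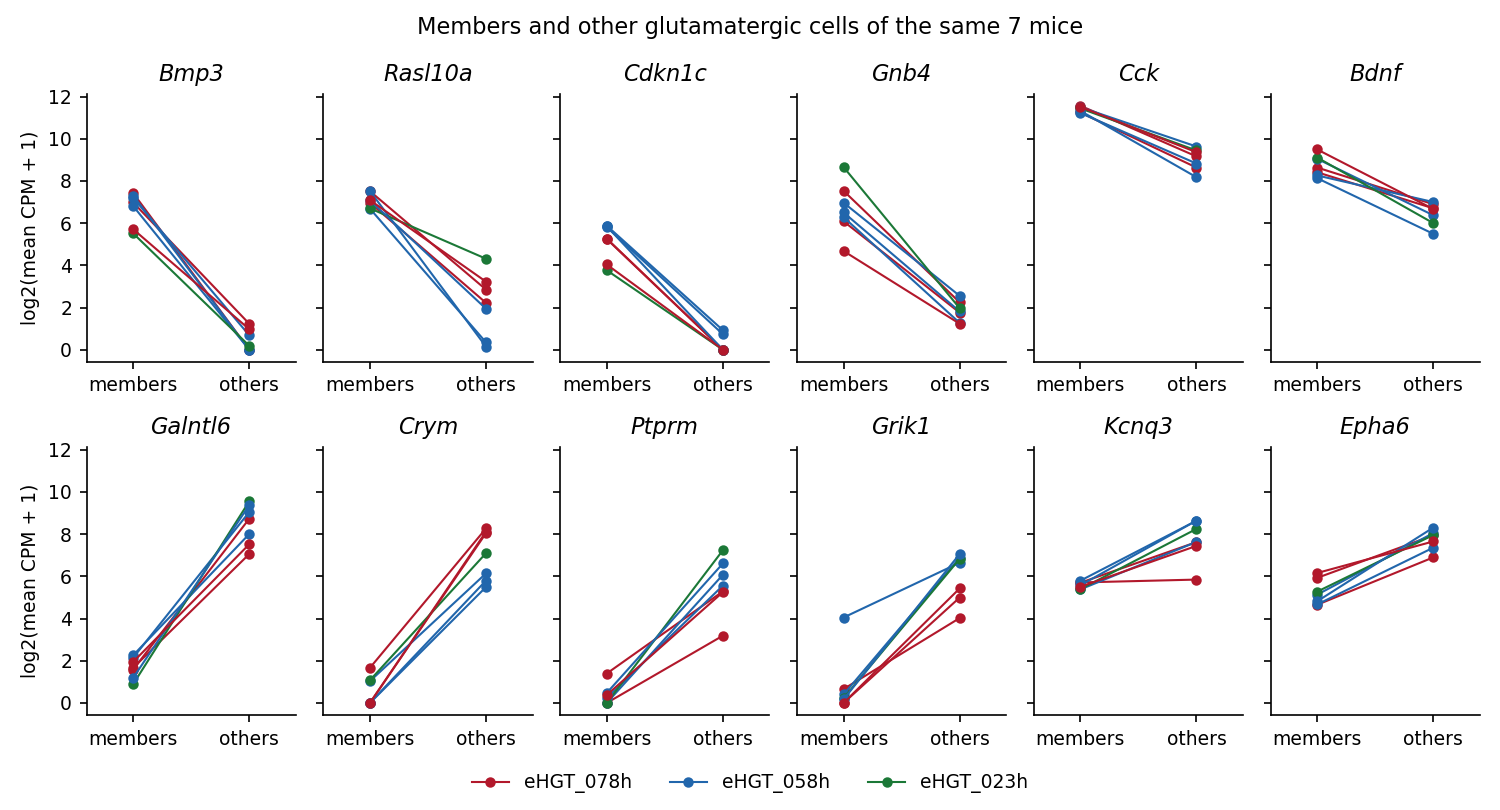
Mean level per mouse, as log2(mean CPM + 1) on the vertical axis, in members (left) and other glutamatergic cells (right) for 12 genes, with a line per mouse coloured by enhancer. Bmp3, Rasl10a, Cdkn1c, Gnb4, Cck and Bdnf were higher in members in all 7 mice, and the 6 genes of the lower row were lower in all 7.

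In the layer lists, rises were found among L2/3 IT and L6 IT genes and falls among L4 and L5 IT genes. Over all tested genes 2.92% rose and 5.08% fell, the shares to set beside the list counts here and below. Of 10 tested genes of the L2/3 IT list 4 rose and 0 fell (median log2 difference 1.73, against -0.06 for all tested genes): Calb1, Stard8, Wfs1, which encodes wolframin of the endoplasmic reticulum, and Rrad, a small GTPase gene. Stard8 had 0.990 to 39.6 CPM in members and 0 to 3.66 CPM in the others (2.99 ± 0.55, limma adjusted p = 0.00434), and averaged 47.8 CPM in the 42 cells and 4.91 CPM in the 77. Calb1 and Wfs1 were also higher in the 42 cells. Rrad averaged 30.3 CPM in the 42 cells and 27.7 CPM in the 77, and reached 10 CPM in 7 of the 42 and 28 of the 77. Of 8 genes of the L6 IT list 4 rose and 0 fell (median 1.66). Of these 4, Fst and Osr1 were among the layer markers whose counts were known when this group was chosen. The other 2 were Col18a1, a collagen gene (2.48 to 60.6 CPM in members, at most 1.38 CPM in the others, 3.36 ± 0.51, limma adjusted p = 0.00162) and the enkephalin gene Penk (2.22 to 108.1 CPM in members, at most 2.32 CPM in the others, 3.48 ± 0.59, limma adjusted p = 0.00297). Col18a1 averaged 22.9 CPM in the 77 cells and 0.564 CPM in the 42. Penk averaged 28.3 CPM in the 77 cells and 73.7 CPM in the 42, and was thus higher in the subgroup of 42.

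Of 7 tested genes of the L4 and L5 IT list 0 rose and 6 fell (median -4.04): Rspo1, Scnn1a, Endou, Hsd11b1, Whrn and Tox. Endou was at 0 in every member. Of 7 genes of the L5 ET list 1 fell (Fam84b), of 3 of the L5 NP list 1 (Tshz2), and of 7 of the L6 CT list 2 (Hs3st4 and Crym), with 0 rises in all 3. The L5 ET median was -1.41, and voom called 5 of the 7 L5 ET genes, against 1 by limma. For L5 NP and L6 CT voom called 1 and 2 genes. Of 2 tested L6b genes 1 rose: Cplx3, which encodes a complexin that acts in vesicle release, had 6.59 to 42.1 CPM in members and at most 1.47 CPM in the others (4.12 ± 0.44, limma adjusted p = 0.000208). Nxph4, another gene of the L6b list, was at 0 in every member.

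Of 8 glutamatergic genes 0 were called by limma (2 at an unadjusted p under 0.05, 0 by voom; median -0.02). Sv2b, a synaptic vesicle gene, had 226.9 to 539 CPM in members and 304.5 to 568 CPM in the others (-0.09 ± 0.15, limma adjusted p = 0.761), ranges that overlapped nearly whole. Of 6 IT identity genes, Cdh13 rose (69.8 to 425.1 CPM in members, 4.70 to 95.2 CPM in the others, 2.56 ± 0.50, limma adjusted p = 0.00784), and the POU factors Pou3f2 and Pou3f3 fell, with log2 differences of -1.52 and -1.55. Of 6 corticofugal identity genes Crym alone was called.

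Among 32 transcription factors of excitatory projection neurons, 2 rose and 8 fell, beside 2.92% higher and 5.08% lower of all tested genes. Nr4a2, an orphan nuclear receptor, had 64.2 to 559 CPM in members (mean 209.5) against 11.5 to 76.2 CPM in the others (mean 40.5), a log2 difference of 2.25 ± 0.33 (limma adjusted p = 0.00134). The other rise was Osr1, one of the layer markers whose counts were known when this group was chosen. The falls were Etv1, an ETS factor of layer 5 neurons (0.887 to 18.002 CPM in members, 18.1 to 161 CPM in the others, -3.19 ± 0.32, limma adjusted p = 0.000139), Zfpm2, Foxo1, Pou3f2, Pou3f3, Bhlhe22, Tshz2 and Tshz3.

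Neuropeptide genes changed mostly upward. Cck, the cholecystokinin gene (chr9:121489824-121495694, GRCm38.p6), had 2386.5 to 3031 CPM in members (median 2776) against 288.1 to 791 CPM in the others (median 571). The lowest mouse of the members lay above the highest of the others, and the log2 difference was 2.37 ± 0.13 (limma adjusted p = 3.96e-06). The 2 subgroups had like levels of 2912 CPM in the 77 cells and 2390.3 CPM in the 42. Tac1, the substance P precursor, varied from 0 to 248.6 CPM in members (median 56.4) and reached 7.03 CPM in the others (3.82 ± 0.94, limma adjusted p = 0.0207), with 95.4 CPM in the 77 cells and 0 in the 42. In all, 4 of 13 tested neuropeptide genes rose (Penk, Cck, Tac1 and Tac2) and 1 fell (Cort).

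Activity-regulated genes moved in part. Of 12 immediate early genes 3 rose and 0 fell: Bdnf, Nptx2 and Npas4. Bdnf, the neurotrophin gene, had 279.3 to 719.3 CPM in members (median 396.5) against 44.01 to 127.01 CPM in the others (median 100.8), with no overlap (2.28 ± 0.21, limma adjusted p = 8.84e-05). Npas4, an activity-dependent transcription factor, had 6.36 to 90.6 CPM in members and 0.383 to 22.9 CPM in the others (1.49 ± 0.33, limma adjusted p = 0.0114). The median of the 12 genes was 0.04, near the -0.06 of all tested genes.

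Receptor and channel lists held more falls than rises, and so did all tested genes (2.92% higher and 5.08% lower). Of 33 voltage-gated potassium channel genes 1 rose and 7 fell (median -0.48). Kcnq3, an M-current channel gene, had 40.7 to 54.6 CPM in members against 56.6 to 399.3 CPM in the others (-2.15 ± 0.29, limma adjusted p = 0.000847), and Kcna2, a Kv1 channel gene, 36.6 to 85.8 CPM against 164 to 295.1 CPM (-1.89 ± 0.17, limma adjusted p = 6.56e-05). Kcnq3 varied little among the members of the 7 mice and widely among the others. The rise was Kcnv1, an electrically silent modulatory subunit, with 179.3 to 469.3 CPM in members and 27.3 to 150 CPM in the others (1.61 ± 0.31, limma adjusted p = 0.00584).

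Of 16 ionotropic glutamate receptor genes 2 rose (Grin2d and Grik4) and 4 fell, Grin2a and Grik1 among them. The NMDA receptor subunit gene Grin2d had 47.9 to 71.1 CPM in members and 2.14 to 56.1 CPM in the others (1.61 ± 0.43, limma adjusted p = 0.0274). Of 7 metabotropic receptor genes 0 rose and 3 fell (Grm4, Grm5 and Grm7). Grm5 had a median of 173.99 CPM in members against 424.6 CPM in the others, without overlap (-1.24 ± 0.16, limma adjusted p = 0.000605).

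Guidance and adhesion genes changed in both directions, as did all tested genes (2.92% higher and 5.08% lower). Of 38 axon guidance genes 4 rose (Sema3e, Plxna4, Nrp2 and Epha3) and 10 fell, among them Sema6a, Epha6, Robo2, Slit2 and Unc5c. Sema3e had 57.5 to 226.5 CPM in members and 0 to 44.8 CPM in the others (4.25 ± 0.84, limma adjusted p = 0.00866), and the eHGT_078h mice gave the 3 highest values in the others. Epha6, an ephrin receptor gene, had 24.2 to 70.5 CPM in members and 118 to 317.1 CPM in the others (-2.51 ± 0.20, limma adjusted p = 4.25e-05). Of 22 cadherins and protocadherins 3 rose (Cdh9, Cdh13 and Pcdh20) and 6 fell.

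In the activin, BMP and TGF-beta list, 3 of 25 tested genes rose (Fst, Bmp3 and the BMP receptor gene Bmpr1b) and 2 fell. Fstl5, a follistatin-like gene, had at most 3.16 CPM in members against 6.07 to 117 CPM in the others (-3.79 ± 0.59, limma adjusted p = 0.00173), and Inhbb, which encodes an activin subunit, at most 8.41 CPM against 1.24 to 20.9 CPM (-1.86 ± 0.34, limma adjusted p = 0.0041). Fst itself had 88.003 to 214.9 CPM in members and at most 11.5 CPM in the others, a value given as a description. The list median was 0.03.

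Of the lists of other cell types, 1 of 4 tested oligodendrocyte genes and 1 of 2 tested precursor genes rose, and limma called 0 of the tested GABAergic, astrocyte, microglial and endothelial genes (0 also at an unadjusted p under 0.05 and by voom). Mobp had 11.5 to 32.4 CPM in members and 0.106 to 12.8 CPM in the others (1.43 ± 0.43, limma adjusted p = 0.0474), and Cspg4 at most 3.88 CPM in members and 1.11 CPM in the others (1.09 ± 0.33, limma adjusted p = 0.0488). Gpr17, another marker of the precursors, was at 0 in all members and all others. Lamp5, which marks both a GABAergic class and L2/3 neurons, had 48.9 to 1509 CPM in members and 104.4 to 1683 CPM in the others (-0.65 ± 0.56, limma adjusted p = 0.485).

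Against Rorb cells alone, in 5 mice (3 of eHGT_058h, 1 each of eHGT_078h and eHGT_023h), 849 of 17176 tested genes were higher in members (4.94%) and 1481 lower (8.62%). With a pseudocount of 10 CPM 1223 genes were called, against 2330. The values that follow come in the mouse order eHGT_078h MouseID-453328, eHGT_058h MouseID-458159, MouseID-463481 and MouseID-497551, and eHGT_023h MouseID-497548. Sema3e had 133.96, 173.6, 148.4, 225.1 and 64.6 CPM in members and 0.247, 0, 0.478, 0.630 and 0.259 CPM in Rorb cells, and was nearly absent from Rorb cells of every mouse (6.74 ± 0.37, limma adjusted p = 2.47e-06). Mas1, which encodes a G protein-coupled receptor for angiotensin-(1-7), had 105.3, 118, 136.7, 105.3 and 109.5 CPM in members and 0, 0.184, 0.0894, 1.22 and 1.01 CPM in Rorb cells (6.35 ± 0.38, limma adjusted p = 2.47e-06). It was the steadier of these 2 genes among members, with 160 CPM in the 77 cells and 174.6 CPM in the 42.

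Syt17, a synaptotagmin gene, and Bmp3 rose by 6.47 ± 0.36 and 6.44 ± 0.43 on the log2 scale (limma adjusted p = 2.47e-06 and 4.76e-06). Cd24a had 22.5 to 180 CPM and Ramp3, a receptor activity-modifying protein gene, a median of 76.6 CPM in members, and both were listed at 0 in Rorb cells of all 5 mice (limma adjusted p = 1.17e-05 and 8.41e-06). Endou was at 0 in members and had 91.1, 74.2, 106.8, 92.6 and 55.1 CPM in Rorb cells (limma adjusted p = 2.89e-06). Galntl6, Thsd7a, Grik1, Ptprm and the heparan sulfate gene Hs3st4 were the other large falls, with log2 differences between -7.56 and -6.06.

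Of 8 genes of the L4 and L5 IT list 7 were tested, and all 7 fell against Rorb cells (median -4.61, all genes -0.01). They were Rspo1, Scnn1a, Endou, Hsd11b1, Whrn, Deptor and Tox. A gene near 0 in members was tested only through its level in Rorb cells, which fixed its direction in advance. Scnn1a, a sodium channel subunit gene of layer 4, was listed at 0 in members of all 5 mice and at 16.5 to 38.01 CPM in Rorb cells. Of 10 L2/3 IT genes 4 rose and 1 fell (Cux2). From the 8 genes of the L6 IT list 6 were tested, and of these 6 genes 4 rose and 0 fell. Of these 4, Osr1 and Fst were among the layer markers whose counts were known when this group was chosen, and the other 2 were Penk and Col18a1. Cux2, whose values are a description, had 21.8, 2.15, 8.86, 5.45 and 23.9 CPM in members against 47.5, 61.1, 41.5, 70.9 and 36.8 CPM in Rorb cells, so members were lower in each mouse.

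Of 6 corticofugal identity genes 2 rose and 1 fell against Rorb cells. Sox5, a factor of deep-layer neurons, had 80.2, 118, 90.5, 98.1 and 44.8 CPM in members and 1.21, 34.9, 4.07, 0.236 and 7.26 CPM in Rorb cells (3.98 ± 0.57, limma adjusted p = 0.0006), with 107.02 CPM in the 77 cells and 25.8 CPM in the 42. Ldb2 rose by 1.23 ± 0.23 and Crym fell by 4.57 on the log2 scale. Of 32 tested potassium channel genes 1 rose and 14 fell (median -0.77), beside 4.94% higher and 8.62% lower of all tested genes. Kcng1, a modulatory subunit, had 34.1, 72.5, 57.5, 79.9 and 6.69 CPM in members and at most 4.08 CPM in Rorb cells (4.09 ± 0.52, limma adjusted p = 0.000281). Of 7 metabotropic receptor genes Grm8 rose (3.47 ± 0.43, limma adjusted p = 0.000248) and Grm3, Grm4, Grm5 and Grm7 fell. Of the markers of other cell types, the astrocyte gene Aldh1l1 fell (15.5 to 29.7 CPM in members, 18.6 to 74.5 CPM in Rorb cells) and Cspg4 rose, and their part in the other results was not tested.

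Against Fezf2 cells, in the 3 eHGT_078h mice, 1566 of 15395 tested genes were called, 970 of them higher in members (6.3%) and the rest lower (3.87%). With a pseudocount of 10 CPM 786 were called, and without MouseID-453328, 930. Values are in the order of MouseID-453328, MouseID-454782 and MouseID-498749. Neurod6, a basic helix-loop-helix factor of IT neurons, had 163, 417.7 and 156.8 CPM in members and 1.25, 5.79 and 0 CPM in Fezf2 cells (6.48 ± 0.31, limma adjusted p = 0.00012). Sorcs3, a sorting receptor gene, had 201.4, 183.2 and 123.01 CPM in members and 3.02, 0.502 and 0 CPM in Fezf2 cells (6.52 ± 0.34, limma adjusted p = 0.000154). Both genes separated members from Fezf2 cells in each of the 3 mice.

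Cbln4, a cerebellin gene of synapse organisation, had 73.6, 70.5 and 173.5 CPM in members, and Kcnc2, a Kv3 channel gene, 84.7, 56.9 and 66.5 CPM, and both were listed at 0 in Fezf2 cells of all 3 mice (limma adjusted p = 0.000196 and 0.000182). Crym had 0, 2.17 and 0 CPM in members and 390.9, 328.02 and 422.98 CPM in Fezf2 cells (-8.01 ± 0.41, limma adjusted p = 0.000154). Fstl5, Stk17b, Rasgrp2, Tox and Stac also fell, by 5.99, 5.72, 5.58, 5.51 and 5.47 on the log2 scale. Slc17a6 had 58.6, 8.49 and 72.9 CPM in members and 0 in Fezf2 cells of each mouse (limma adjusted p = 0.00236). The low value was that of MouseID-454782, which had 2 members in the subgroup of 42.

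Of 8 genes of the L5 ET list 6 were tested, and all 6 fell against Fezf2 cells (median -3.97, all genes 0.01). Bcl11b, which encodes the factor CTIP2 of subcortical projection neurons, had 1.80, 17.7 and 3.38 CPM in members against 124.8, 96.3 and 63.1 CPM in Fezf2 cells (-3.91 ± 0.52, limma adjusted p = 0.00338). Fam84b, Pou3f1, Parm1, Npr3 and Bcl6 were the others. Of 8 genes of the L6 IT list 5 were tested, and all 5 rose. A gene near 0 in 1 of the 2 classes was tested only through its level in the other class. The direction of such a gene was thus fixed in advance, in this list and in the L5 ET list. Of these, Osr1 and Fst were among the layer markers whose counts were known when this group was chosen, and Penk, Col18a1 and Col23a1 were not. Of 10 L2/3 IT genes 6 rose, Otof, again one of those layer markers, among them. Slc30a3, which encodes the vesicular zinc transporter of IT neurons, had 125.6, 122.5 and 112.4 CPM in members and 29.9, 19.1 and 7.72 CPM in Fezf2 cells (2.78 ± 0.31, limma adjusted p = 0.00167).

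Further lists against Fezf2 cells are given on their own, since this comparison shares members of MouseID-453328 with that against Rorb cells. Over all tested genes 6.3% rose and 3.87% fell against Fezf2 cells. Of 33 potassium channel genes 9 rose and 4 fell against Fezf2 cells (median 0.39), and Kcnv1 had 265.9, 266.96 and 405.5 CPM in members against 9.57, 9.83 and 16.5 CPM in Fezf2 cells (4.61 ± 0.15, limma adjusted p = 2.27e-05). Of 12 immediate early genes 6 rose and 0 fell: Egr1, Egr2, Arc, Npas4, Nptx2 and Bdnf. Of 22 tested genes of the activin, BMP and TGF-beta list 8 rose and 1 fell. Fst, a layer marker whose counts were known when this group was chosen, was among these rises. Cck had 2426, 3031 and 2910 CPM in members and 430, 515 and 569 CPM in Fezf2 cells (2.47 ± 0.07, limma adjusted p = 1.36e-05). Mobp and the astrocyte gene Aldh1l1 were also higher in members, Aldh1l1 with 20.3, 41.5 and 23.3 CPM against a listed 0 in Fezf2 cells of all 3 mice. The part of both genes in the other results was not tested.

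Within the members, eHGT_078h was compared with eHGT_058h over 3 mice each. Of 15196 tested genes 14 were higher in eHGT_078h members (0.0921%) and 4 lower (0.0263%). Values are in the order of eHGT_078h mice MouseID-453328, MouseID-454782 and MouseID-498749 and eHGT_058h mice MouseID-458159, MouseID-463481 and MouseID-497551. Ptgs2, the cyclooxygenase-2 gene, had 47.1, 20.2 and 162 CPM in eHGT_078h members and 0, 0 and 3.33 CPM in eHGT_058h members (5.08 ± 0.77, limma adjusted p = 0.0343). Lpl, the lipoprotein lipase gene, had 39.4, 16.4 and 56.1 CPM in eHGT_078h members and 1.38, 0 and 2.81 CPM in eHGT_058h members (4.04 ± 0.60, limma adjusted p = 0.0343). The eHGT_078h mice did not overlap the eHGT_058h mice for either gene.

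Pcdh7, a protocadherin gene, had 193.1, 119 and 205.5 CPM in eHGT_078h members and 25.03, 42.9 and 33.9 CPM in eHGT_058h members (2.30 ± 0.26, limma adjusted p = 0.0189). Cplx2, Mxra7, Rasgrf2, Sgcz, Rgs6, Gsta4, Ano3, Arl15, Id2, Atxn1 and Rbfox1 were the other rises, with log2 differences between 1.07 and 2.91. Among the falls, Pcp4, a calmodulin-binding protein gene, had 43.8, 75.7 and 74.7 CPM in eHGT_078h members and 322.9, 183.8 and 210 CPM in eHGT_058h members (-1.87 ± 0.26, limma adjusted p = 0.0343), and Sulf2, a heparan sulfatase gene, 20.3, 25.2 and 10.4 CPM against 84.4, 81.6 and 72.1 CPM (-2.11 ± 0.31, limma adjusted p = 0.0343).

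The mix of subgroups differed between the mice of this comparison, and its part in the calls was not tested. Ptgs2 averaged 135.5 CPM in the subgroup of 42 cells and 11.03 CPM in the 77, Lpl 90.3 and 0.471 CPM, and Pcp4 1.98 and 170 CPM. The subgroup of 42 made up 45%, 7.41% and 70.8% of members in the eHGT_078h mice and 0%, 12.5% and 9.09% in the eHGT_058h mice. At 7.41%, eHGT_078h MouseID-454782 lay within the range of the eHGT_058h mice, and its Ptgs2, Lpl and Pcp4 levels lay on the eHGT_078h side. With the 77 cells alone, 0 genes were called by limma (1116 at an unadjusted p under 0.05), and voom on all members also called 0 (1383 at an unadjusted p under 0.05). The count was 0 as well without eHGT_078h MouseID-453328, without eHGT_078h MouseID-498749 and without eHGT_058h MouseID-463481, 1 without eHGT_058h MouseID-458159, and 42 without eHGT_078h MouseID-454782.

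**Figure D5:**
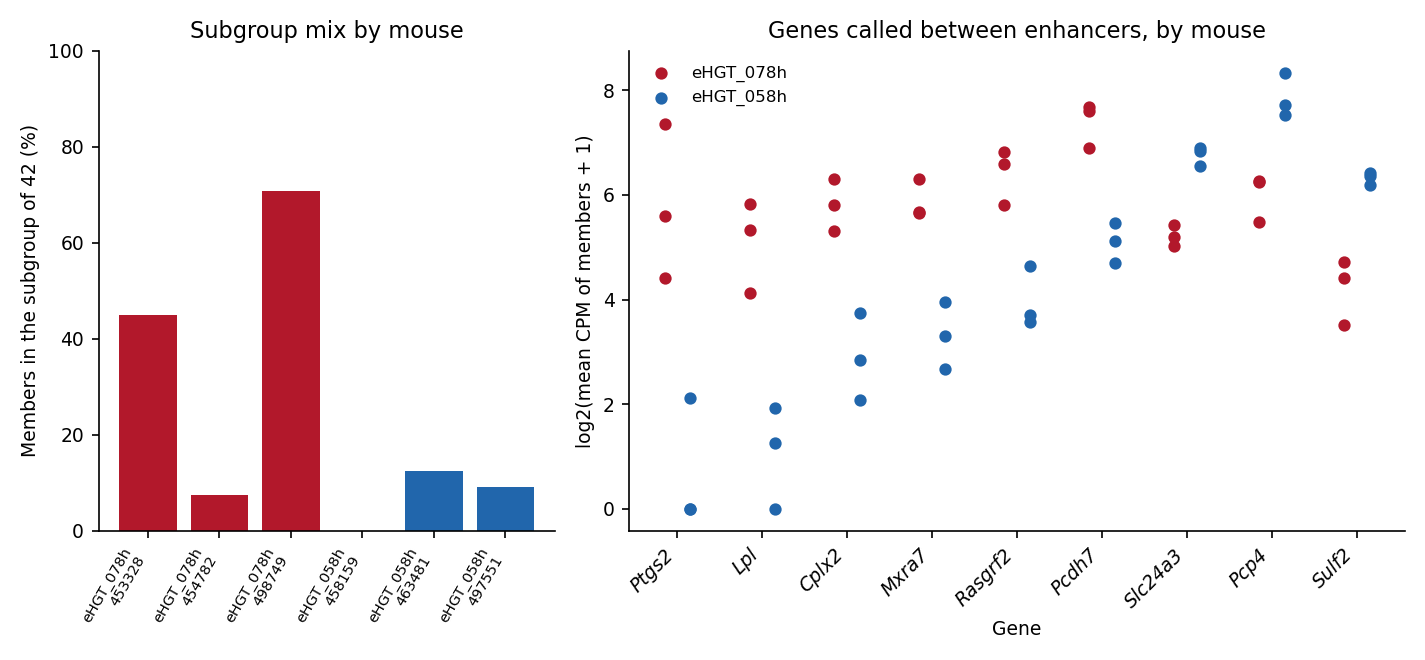
Left, share of members in the subgroup of 42 cells (percent) for each eHGT_078h mouse (red) and eHGT_058h mouse (blue). Right, mean level of 9 genes called between the enhancers, as log2(mean CPM of members + 1), with a point per mouse; the eHGT_078h points lie above the eHGT_058h points for the 6 genes on the left and below them for Slc24a3, Pcp4 and Sulf2.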

How the data were processed

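Single cells were labelled by enhancer AAV, sorted and sequenced as polyadenylated RNA. STAR and the genome build mm10 are listed in the submitters' processing notes, and the counting program is not given in the sources used here. The authors deposited 1 table of CPM with 1483 cells and 45768 genes, in which every cell sums to 1000000. Within a cell, 100% of the nonzero entries came within 0.01 of a whole number of reads, which gave the reads per cell. Reads have no molecular identifiers and are not independent molecules. No doublet caller was run and no cell was removed.

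CPM were averaged over the cells of a mouse and class, for mice with at least 5 cells of each class. Genes with at least 1 CPM in 2 or more columns entered limma 3.58.1 (trend, robust, statmod 1.5.0, R 4.3.3) as log2(mean CPM + 1), with the mouse as a block where classes of 1 mouse were compared, since same-numbered columns come from the same animal. The design had given a count test to raw counts, and the deposited unit called for limma. The fits were tested on simulated data. Members were clustered from 1000 variable genes, 15 principal components and 10 neighbours (Leiden, resolution 0.5 and 1.5; leidenalg 0.10.2, igraph 0.11.9, scikit-learn 1.9.0). Shares were compared by exact permutation tests (scipy 1.17.1).

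Among called genes that averaged 20 CPM or more in one class and differed the same way in every mouse (or did not overlap between enhancers), the 10 largest rises and falls (6 in the other comparisons) were named, with the marker genes and up to 4 genes of each of 27 lists. Genes of the selection, Xist, Tsix, Y-linked genes, pseudogenes, mitochondrial and ribosomal protein genes and genes without an official symbol were left out. The members, lists and tests were chosen with earlier results of these data known. Gene positions are from RefSeq on GRCm38.p6.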

Additional observations from a re-analysis of the deposited data

Results flagged for a closer look

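The per-mouse log2 differences of the genes with the largest changes were searched for a mouse far from the others by Dixon's ratio at its 95% critical value, which chance passes in about 1 of 20 groups. The mice belong to different enhancers. Of 32 gene comparisons, 3 had such a mouse. For Thsd7a the difference of members minus other glutamatergic cells was -0.069 in eHGT_078h MouseID-454782, against -8.14 to -5.26 in the 6 other mice. For Bglap3 it was -1.93 in the same mouse, against -5.58 to -4.01. The other glutamatergic cells of that mouse were 16 Fezf2 cells and 1 Rorb cell. For Grik1 the difference of members minus Rorb cells was -2.67 in eHGT_058h MouseID-463481, against -7.30 to -6.90 in the 4 other mice. That mouse gave 8 members.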

How the results depend on the processing

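The eHGT_078h share kept its direction in every alternative run and its call in all but the one with letter G only (47.6 points, adjusted exact p = 0.0725); leaving out a mouse gave 43.1 to 51.6 points. The eHGT_023h difference of 3.59 points was -3.49 to 8.11 points without 1 mouse, and the negative value is without MouseID-497548, which gave 12 of the 16 members. Against the other glutamatergic cells 8.01% of the tested genes were called, with a pseudocount of 10 CPM 3.20%, with letter G only 2.68% and with letter J only (an alternative added after seeing the data) 5.34%. Against Rorb cells 13.6% were called, with a pseudocount of 10 CPM 7.12% and with letter G only 7.46%. Against Fezf2 cells 10.2% were called, with a pseudocount of 10 CPM 5.11%, and 6.397% to 9.60% without 1 mouse, the lowest without eHGT_078h MouseID-453328. The cause was not tested. Between eHGT_078h and eHGT_058h members there were 18 calls, and 4 with Rorb and Fezf2 both under 10 CPM. There were 0 with no filter on low values, with at least 3 cells, with at least 10 cells, with letter G only, with voom and with the 77 cells alone (the last 2 added after seeing the data), and 0 to 42 without 1 mouse. At an unadjusted p under 0.05 these settings without a call had 967 to 1846 genes.

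Without the replicate block 8.24%, 13.3% and 9.93% of tested genes were called in the 3 paired comparisons, and no count moved by more than 1.5 times. Of the called genes named, 30 of 67 kept their call against the other glutamatergic cells in every alternative, 49 of 72 against Rorb cells, 52 of 65 against Fezf2 cells and 0 of 18 between enhancers, and none changed sign. The planned edgeR fit was not run, since the table holds CPM, and voom on recovered reads took its place; at least 10 cells could not be fitted against Rorb cells, nor eHGT_023h shares with letter G only. In the median member 1 read is 1.67 CPM, so levels of 1 to 2 CPM in a cell are single reads.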
